A study of Mus musculus with 6 samples.

Results

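Axon guidance ligands and receptors are the cues and cell-surface sensors that steer growing axons and migrating neurons. They were followed here as 70 gene rows of 23337, namely every row whose symbol names an Eph receptor, an ephrin, a semaphorin of classes 3 to 7, a plexin, a neuropilin, a Slit, a Robo, a netrin or a netrin receptor (Dcc, Neo1 and the Unc5 genes). The rows were picked by symbol alone, but the family was chosen with earlier results of these data known. The samples were nuclear RNA from mouse neural precursor cells (NPCs), the dividing stem-like cells of the embryonic brain, taken from the dorsal forebrain of E13.5 embryos and compared between wild-type (WT) and Fmr1 knockout (KO) genotypes. All 6 cultures were at passage 6 to 7, grew on Matrigel in medium with heparin (5 ug/ml) and 20 ng/ml of EGF and of FGF2, and were collected near 80% confluency. Lines 3, 8 and 19 were labelled WT and lines 3, 13 and 16 were labelled KO, with 3 independent lines per genotype according to the series' design text. The sources used here do not give the knockout allele, the mouse strain or the number of embryos behind a line. P-values therefore set the genotype difference against the spread between lines within a genotype, for these 6 cultures only.

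Each family works as ligand and receptor. Secreted class 3 semaphorins bind neuropilins, which hand the signal to plexins, while the membrane-bound semaphorins mostly bind plexins directly. Netrin-1 attracts axons through Dcc and repels them through Unc5 receptors. Slits act through Robos, chiefly as repellents, and ephrins meet Eph receptor tyrosine kinases at cell contacts, where signals can run in either direction. In the embryonic forebrain several of these genes are expressed by radial glia and other precursors as well as by neurons, where they bear on proliferation, adhesion and migration.

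Total counts ran from 18702738 to 26789522 per library, so that a level of 0.0366 to 0.0542 CPM (counts scaled to library size with TMM factors) stands for 1 count, and guidance genes took 0.345% to 0.441% of all counts. Fmr1 itself stood at 223, 269.8 and 274 CPM in WT lines 3, 8 and 19 and at 371, 188 and 153 CPM in KO-labelled lines 3, 13 and 16. Its level in the library labelled KO line 3 lay above every WT line, and KO-labelled lines 13 and 16 lay below them, so Fmr1 was not called (log2 fold change -0.10, SE 0.29, edgeR adjusted p = 0.795; SE is the standard error). Whether these counts come from outside the disrupted part of the gene cannot be told apart here. Without KO line 3 it was -0.58 on the log2 scale (edgeR adjusted p = 0.00152). Fmr1 counts remained in every KO-labelled line, so they do not settle the genotype of any of these lines. KO below therefore means the lines labelled KO, and every direction given rests on those labels. Xist was high in WT lines 3 and 8 and in KO line 3 (15465 to 20508 CPM) and low in WT line 19 and KO lines 13 and 16 (1.67 to 81.8 CPM). Over all tested genes 21.8% were called higher and 20.4% lower in KO, which is the background of the marker counts that follow. Among markers of neural precursors 0 of 12 tested were called higher and 2 lower (Vim and Slc1a3, 16.7%), with summed levels of 8041 to 9057 CPM in WT and 6010 to 7418 CPM in KO. Neuronal markers had 5 of 9 called higher (928 to 1169 CPM summed in WT, 1336 to 1890 CPM in KO, with Stmn2 at 0 to 0.172 CPM). Map2 made up most of that sum, at a mean of 907 CPM in WT and 1289 CPM in KO. Of the neuronal markers, Tubb3, Rbfox3, Elavl4 (log2 fold change -0.43) and Syt1 were not called. Oligodendrocyte lineage markers had 4 of 7 called higher (685 to 766 CPM, 1110 to 1309 CPM, with Mbp at 0 in every WT line). Astrocyte markers had 5 of 8 called lower (403 to 667 CPM in WT, 187 to 270 CPM in KO). Endothelial markers had 1 of 3 called lower, mural markers 2 of 2 called higher and microglial markers 0 of 1 called. These last 3 lists summed to at most 4.94 CPM in any line, with the endothelial Cldn5 and Tie1 at 0 in every WT line. The part of any such shift in the guidance gene results was not tested, and in bulk nuclei a change in the number of cells of a type cannot be told apart from a change in RNA per cell.

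Many guidance genes differed between the genotypes, about as many higher as lower, while their summed level differed by less than the spread between lines. Of the 70, 64 had enough counts to test, and 42 of those were called (edgeR's quasi-likelihood test, Benjamini-Hochberg adjusted p under 0.05), 22 higher and 20 lower in KO. That is 65.6% of the tested guidance genes, where 42.3% of all 13925 tested genes were called. In the higher direction the share was 34.4% beside 21.8% of all genes, and in the lower direction 31.2% beside 20.4%. WT and KO values did not overlap for 46 of the 64 (71.9%), against 54.3% of all tested genes. All 42 called genes were among those 46. With WT line 19 and KO line 3 both left out, 29 guidance genes were called higher and 17 lower. The share of all tested genes called in that fit is not given here, so these counts are not read as a result about the guidance genes. Only Xist-high WT lines and Xist-low KO lines remain in that fit, here and below. Genotype and Xist state cannot be told apart in it. The sum over the guidance genes was 3906 ± 505 CPM in WT and 3927 ± 300 CPM in KO (SD, n = 3 lines each). The median log2 fold change was 0.09, beside 0.01 over all tested genes, while the median of its absolute size was 0.72 beside 0.37. At least a 2-fold difference was seen for 11 of the 22 guidance genes called higher and 10 of the 20 called lower. Among all 13925 tested genes, 796 of the 3040 called higher and 1174 of the 2844 called lower reached that size. Both roles held calls in both directions: 10 of 31 tested ligands were called higher and 9 lower, and 12 of 33 tested receptors were called higher and 11 lower.

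**Figure D1:**
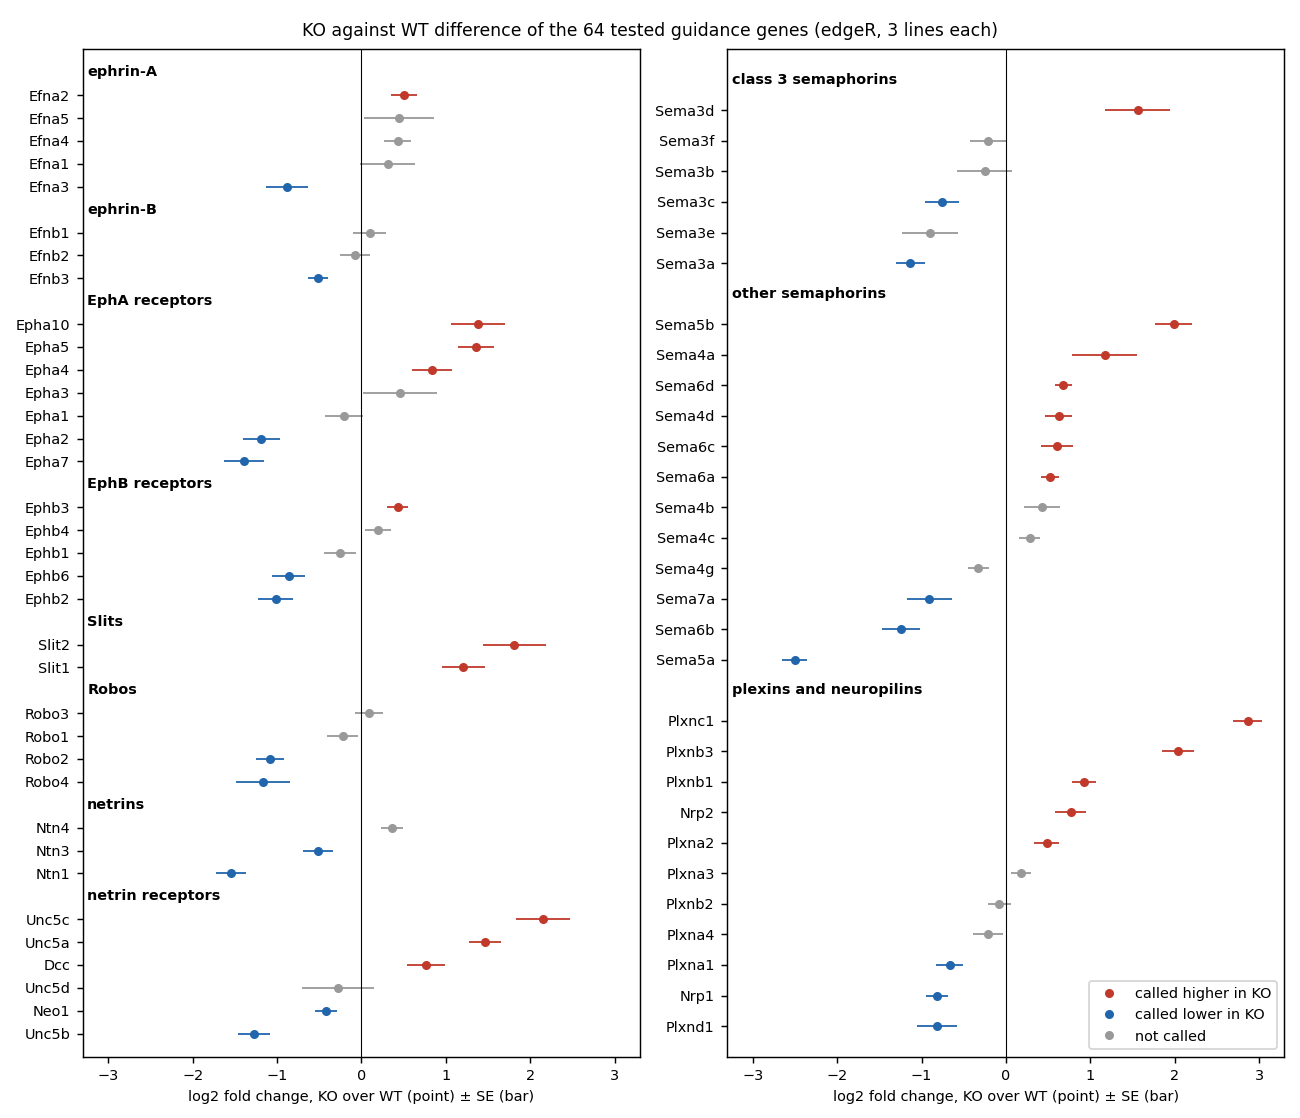
Log2 fold change of KO over WT for the 64 tested guidance genes, grouped by family, with points for the estimate and bars for its standard error (edgeR, 3 lines per genotype). Red points were called higher, blue points lower and grey points neither; every family with more than 2 tested members except the ephrin-Bs, the Robos and the netrins holds genes on both sides of 0 that were called, from Sema5a at -2.50 to Plxnc1 at 2.86.

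Levels between genes were compared in CPM per kilobase of exon. Plxnb2, a plexin that binds class 4 semaphorins, was the highest guidance gene in both genotypes at 63.9 CPM per kilobase in WT and 60.5 in KO. The transmembrane semaphorin Sema6d, the plexins Plxna1, Plxna3 and Plxnb1 and the ligand Ntn1 followed. The order below Plxnb2 differed between genotypes. Sema5b stood at rank 18 in WT (10.1 CPM per kilobase) and rank 3 in KO (39.9), whereas Ntn1 moved from rank 2 (45.9) to rank 9 (15.7) and the netrin receptor Unc5b from rank 9 (13.6) to rank 22 (5.63). Of the tested genes, Slit2, Unc5c, Epha3 and Sema4a were below 0.1 CPM per kilobase averaged over the genotypes. The members with too few counts to test were below that level too.

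**Figure D2:**
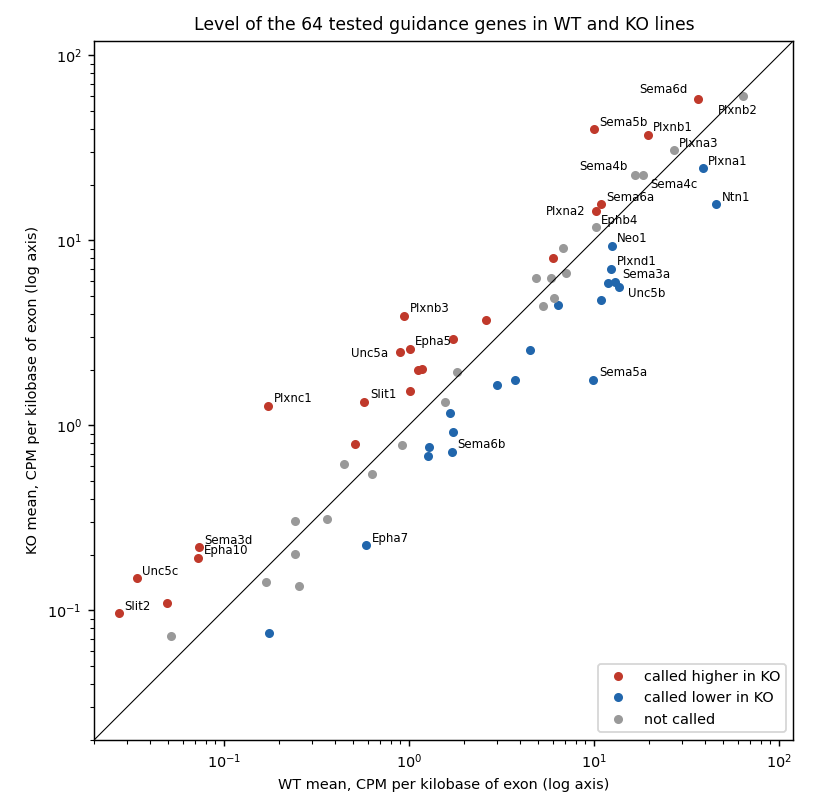
Mean level of the 64 tested guidance genes in WT (horizontal) and KO (vertical) in CPM per kilobase of exon, both on log axes, with the diagonal of equal level. Sema5b, Plxnc1 and Plxnb3 lie well above the diagonal, Sema5a and Ntn1 well below it, and the highest gene, Plxnb2, close to it.

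Of the membrane-bound semaphorins, 6 of 12 tested were called higher in KO and 3 lower (75% called, beside 42.3% of all tested genes). The sum over the group was 993 ± 105 CPM in WT and 1364 ± 129 CPM in KO (SD, n = 3). The class 5 pair moved apart. Sema5a (chr15:32244810-32696341, plus strand, GRCm38), a transmembrane guidance cue with thrombospondin repeats, had 174, 167 and 217 CPM in WT lines 3, 8 and 19 and 37.8, 29.6 and 31.1 CPM in KO lines 3, 13 and 16. Every KO line was far below every WT line, and it was the guidance gene with the most negative fold change (log2 fold change -2.50, SE 0.15, edgeR adjusted p = 1.85e-05; 5.66-fold lower). Its close relative Sema5b (chr16:35541145-35664732, plus strand) had 70.5, 51.6 and 91.4 CPM in WT and 221, 327 and 299 CPM in KO in the same line order. All KO lines lay above all WT lines, with KO line 3 the lowest of the KO lines (log2 fold change 1.99, SE 0.22, edgeR adjusted p = 0.00021; 3.97-fold higher). Summed, the pair reached 257 ± 46.0 CPM in WT and 315.0 ± 50.9 CPM in KO (SD, n = 3), most of it Sema5a in WT and Sema5b in KO.

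All 4 class 6 semaphorins, transmembrane ligands of plexin-As, were called, where 42.3% of all tested genes were. The most abundant of them, Sema6d (chr2:124089969-124667770, plus strand), rose from 385, 364 and 404 CPM in the WT lines to 597, 659 and 593 CPM in the KO lines, with no overlap and a narrow spread within each genotype (log2 fold change 0.68, SE 0.10, edgeR adjusted p = 0.00103). Sema6a (log2 fold change 0.53, edgeR adjusted p = 0.00433) and Sema6c (0.60, edgeR adjusted p = 0.0325), named outside the rule for named genes to complete the class, were also higher. The call of Sema6c was lost without WT line 3, WT line 8 or KO line 13 (edgeR adjusted p 0.107 to 0.121). Sema6b fell, from 7.83, 5.22 and 7.37 CPM to 2.19, 3.003 and 3.39 CPM (log2 fold change -1.24, SE 0.23, edgeR adjusted p = 0.00273). In class 4, Sema4d, the ligand of Plxnb1, was higher in KO at 5.34, 6.47 and 6.39 CPM against 4.10, 3.70 and 4.01 CPM (log2 fold change 0.63, SE 0.16, edgeR adjusted p = 0.0140), a call lost without WT line 3, WT line 8 or KO line 13 (edgeR adjusted p 0.0525 to 0.0561). Sema4a, also outside the rule, was called higher on 39 counts in KO against 17 in WT (log2 fold change 1.17, edgeR adjusted p = 0.0363). That call was lost without WT line 3, WT line 8 or any KO line, without the filter on low counts, with Xist state as a term and in the DESeq2 test (adjusted p 0.0522 to 0.147). Sema4b, Sema4c and Sema4g were not called. Sema7a, the membrane-anchored ligand of Plxnc1, was lower, at 5.89, 3.65 and 7.59 CPM in WT and 2.62, 3.17 and 3.305 CPM in KO (log2 fold change -0.91, SE 0.27, edgeR adjusted p = 0.0235). Its call was lost without WT line 3, WT line 19 or KO line 13, and when WT line 19 and KO line 3 were both left out (edgeR adjusted p 0.0559 to 0.0826).

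Secreted class 3 semaphorins summed to 200 ± 15.3 CPM in WT and 96.5 ± 22.1 CPM in KO (SD, n = 3), which was mainly Sema3a. Sema3a (chr5:13125414-13602565, plus strand), the classical repellent of cortical axons, had 179, 198 and 167 CPM in WT and 106, 71.3 and 71.2 CPM in KO. The genotypes did not overlap, and KO line 3 was the closest to the WT lines (log2 fold change -1.13, SE 0.17, edgeR adjusted p = 0.000904). Sema3c was lower as well, 8.38, 9.93 and 9.11 CPM in WT against 7.05, 4.53 and 4.68 CPM in KO (log2 fold change -0.76, SE 0.20, edgeR adjusted p = 0.0141), with the call lost without WT line 8 or KO line 13 (edgeR adjusted p 0.0542 to 0.0577). Sema3d went the other way at low level, 0.585, 0.760 and 0.542 CPM in WT and 2.67, 1.95 and 1.03 CPM in KO, on 41 and 120 counts in all (log2 fold change 1.56, SE 0.38, edgeR adjusted p = 0.0109). The remaining 3 tested members, Sema3b, Sema3e and Sema3f, were not called, so 50% of the tested class was called, near the 42.3% of all tested genes. Sema3e, the ligand that binds Plxnd1 without a neuropilin, came closest, with non-overlapping values of 1.98, 1.52 and 3.58 and 1.28, 1.18 and 1.29 CPM (log2 fold change -0.90, SE 0.33, edgeR adjusted p = 0.0549), and it was called lower under 7 of the alternatives, among them the DESeq2 test (adjusted p = 0.0475) and the fit without WT line 8 (edgeR adjusted p = 0.0304). WT line 19 was its highest line, and without it the log2 fold change was -0.49 (edgeR adjusted p = 0.184).

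Receptors of the semaphorins changed in both directions: 5 of the 11 plexins and neuropilins were called higher in KO, 3 lower and 3 neither (72.7% called, beside 42.3% of all tested genes). The sharpest rise was that of Plxnc1 (chr10:94790866-94944835, minus strand), which had 1.54, 1.47 and 1.36 CPM in WT lines 3, 8 and 19 and 11.8, 10.3 and 9.999 CPM in KO lines 3, 13 and 16. Each genotype was tight around its mean, 1.45 ± 0.0913 CPM in WT and 10.7 ± 0.945 CPM in KO (SD, n = 3), on 96 and 696 counts (log2 fold change 2.86, SE 0.17, edgeR adjusted p = 1.85e-05; 7.35-fold higher). Plxnc1 thus rose where its ligand Sema7a was lower. Plxnb3 (chrX:73757090-73772514, plus strand), a receptor of Sema5a, rose from 6.36, 6.69 and 5.37 CPM to 32.0, 22.9 and 21.1 CPM, with KO line 3 the highest (log2 fold change 2.04, SE 0.19, edgeR adjusted p = 8.64e-05). It therefore rose where Sema5a fell, and where 4 of 7 oligodendrocyte lineage markers, Pdgfra, Sox10, Olig2 and Gpr17, were also higher; their part was not tested. Plxnb1, the Sema4d receptor, had 175, 164 and 224 CPM in WT and 324, 398 and 349.5 CPM in KO and rose together with its ligand (log2 fold change 0.93, SE 0.14, edgeR adjusted p = 0.00119). The abundant Plxnb2 stood at 458, 449.8 and 572 CPM in WT and 409.7, 484 and 508 CPM in KO. Its genotypes overlapped and it was not called (log2 fold change -0.08, SE 0.13, edgeR adjusted p = 0.668).

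Among the partners of class 3 semaphorins, the neuropilins separated. Nrp1, the Sema3a co-receptor, fell from 41.6, 51.0 and 40.2 CPM to 27.6, 25.2 and 22.5 CPM (log2 fold change -0.82, SE 0.13, edgeR adjusted p = 0.00149). Nrp2, which binds Sema3f and is outside the rule for named genes, rose from 20.9, 17.6 and 22.8 CPM to 44.1, 27.5 and 33.0 CPM (log2 fold change 0.77, SE 0.18, edgeR adjusted p = 0.00917). Within each genotype the lines of either gene kept apart from the other genotype. Plxna1, the most abundant plexin-A per kilobase in WT, fell from 335, 293 and 429.6 CPM to 191, 244 and 230.3 CPM (log2 fold change -0.67, SE 0.16, edgeR adjusted p = 0.00951), a difference that was -0.40 on the log2 scale without WT line 19 and KO line 3. Plxna2, outside the rule, was higher (0.48, edgeR adjusted p = 0.0309), a call lost without WT line 3, WT line 8, KO line 13 or KO line 16 (edgeR adjusted p 0.0561 to 0.120), and Plxna3 and Plxna4 were not called. Plxnd1, the Sema3e receptor, had 65.3, 84.1 and 123 CPM in WT and 40.1, 53.2 and 60.7 CPM in KO and was lower (log2 fold change -0.82, SE 0.23, edgeR adjusted p = 0.0204). WT line 19 was its highest line, and the call was lost without WT line 19 (log2 fold change -0.54, edgeR adjusted p = 0.0660), without KO line 3 (edgeR adjusted p = 0.0843) or without KO line 13 (edgeR adjusted p = 0.0528).

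Windows of 250 bases before the RefSeq start of Sema5a and of Plxnc1 are given because these genes marked the extremes of the family in either direction. They are the RefSeq sequences of GRCm38.p6, 5′ to 3′ on the gene's strand, with GC boxes in capitals (GGGCGG or its reverse complement CCGCCC, overlapping matches included). The Sema5a window lies at chr15:32244563-32244812 and that of Plxnc1 at chr10:94944846-94945095. In the GENCODE annotation the last 3 bases of the Sema5a window belong to its own exon.
Sema5a: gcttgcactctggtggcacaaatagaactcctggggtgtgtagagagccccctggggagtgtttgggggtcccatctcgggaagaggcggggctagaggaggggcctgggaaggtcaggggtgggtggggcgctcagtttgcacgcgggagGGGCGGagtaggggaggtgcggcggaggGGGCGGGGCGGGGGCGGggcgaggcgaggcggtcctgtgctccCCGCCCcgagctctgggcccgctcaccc
Plxnc1: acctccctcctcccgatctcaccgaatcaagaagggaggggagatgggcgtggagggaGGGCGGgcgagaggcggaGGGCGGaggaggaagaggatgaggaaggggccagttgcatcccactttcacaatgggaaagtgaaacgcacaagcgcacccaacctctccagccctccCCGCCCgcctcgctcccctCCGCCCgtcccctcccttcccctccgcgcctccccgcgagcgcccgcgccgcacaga
Both windows are rich in G and C, at 72% and 68.8%, with 5 and 4 GC boxes, so the gene with the most negative fold change and the gene with the most positive one both hold this element. At least 1 GC box stood in 71.1% of the 76 windows of 60 guidance genes, in 57.1% of the 12592 windows of tested genes and in 32.7% of all 32851 windows of the same length. The share was 65.4% of 26 windows of guidance genes called higher and 72.7% of 22 windows of those called lower. A TATA box (TATAAA on either strand) was found in 2.63% of the guidance gene windows, 6.401% of those of tested genes and 12.4% of all windows, and a CACGTG E-box in 5.26%, 8.12% and 6.02%. These letters describe the windows and show no binding. An exon of the noncoding RNA gene Snhg18 covers 100 bases of the Sema5a window, and its row, listed as 0610007N19Rik, was lower in KO too: 2.16, 2.03 and 2.77 CPM in WT and 0.695, 0.169 and 0.257 CPM in KO, on 150 and 23 counts (log2 fold change -2.68, SE 0.42, edgeR adjusted p = 0.00126).

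**Figure D3:**
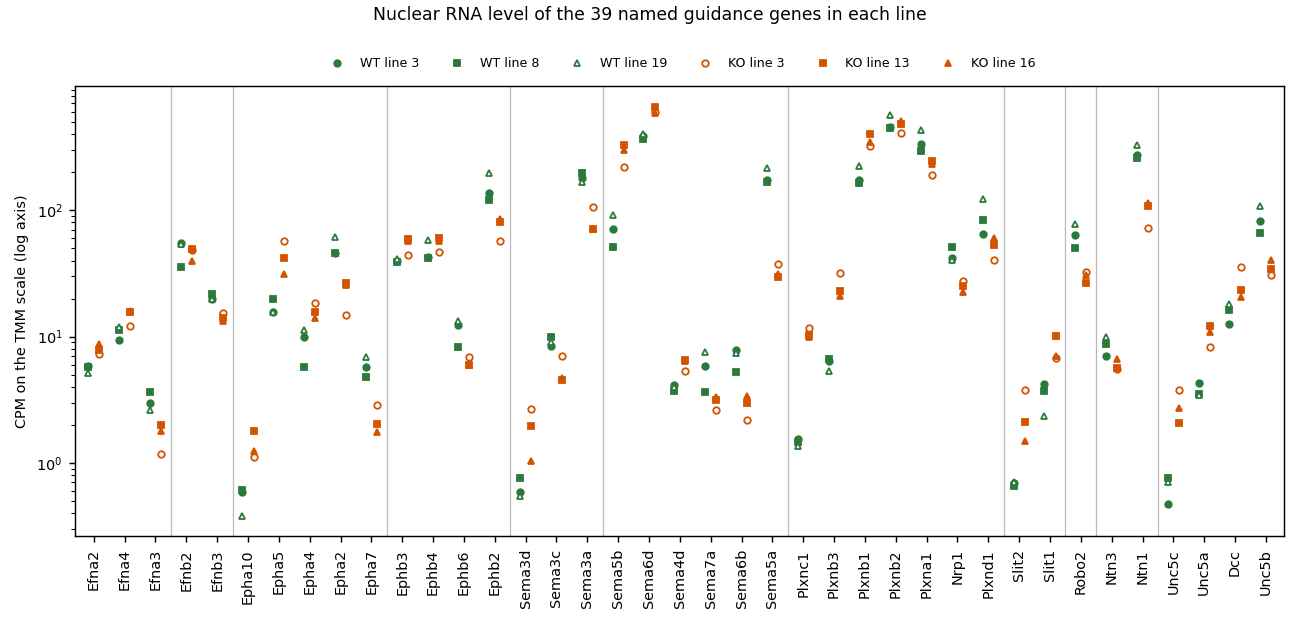
Level of the 39 guidance genes named by rule in each of the 6 lines, in CPM on a log axis, with WT lines in green to the left and KO lines in orange to the right of each position and vertical lines between families. Sema5a, Ntn1 and Unc5b show 3 KO points below 3 WT points, Plxnc1, Plxnb3, Sema5b, Unc5a and Slit2 show them above, and the points of Plxnb2, Efnb2 and Ephb4 mix.

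The netrins called, Ntn1 and Ntn3, were lower in KO, and netrin receptors were called in both directions. Ntn1 (chr11:68209364-68400823, minus strand), which encodes netrin-1, had 273, 261 and 329 CPM in WT lines 3, 8 and 19 and 72.6, 108 and 115 CPM in KO lines 3, 13 and 16. All WT lines lay far above all KO lines, and KO line 3 was lowest of all (log2 fold change -1.55, SE 0.18, edgeR adjusted p = 0.000267; 2.92-fold lower). Ntn3 was also lower, at 7.06, 8.71 and 9.87 CPM in WT and 5.56, 5.62 and 6.69 CPM in KO (log2 fold change -0.51, SE 0.17, edgeR adjusted p = 0.0409), but the call was lost without WT line 8, WT line 19, KO line 3 or KO line 13, and when WT line 19 and KO line 3 were both left out (edgeR adjusted p 0.0532 to 0.141). The matrix-bound Ntn4, outside the rule, was not called, with 19.6, 16.5 and 18.2 CPM in WT and 20.0, 24.8 and 25.1 CPM in KO (log2 fold change 0.36, SE 0.13, edgeR adjusted p = 0.0560).

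Of the 6 netrin receptors, 3 were called higher in KO and 2 lower (83.3% called, beside 42.3% of all tested genes). Unc5b (chr10:60762593-60831581, minus strand), the predominant Unc5 gene here, had 82.1, 65.5 and 108 CPM in WT and 30.5, 34.5 and 40.7 CPM in KO (log2 fold change -1.27, SE 0.19, edgeR adjusted p = 0.000954; 2.42-fold lower). Every KO line was below every WT line. The scarcer Unc5a (chr13:54949411-55006018, plus strand) had 4.28, 3.496 and 3.47 CPM in WT and 8.34, 12.1 and 10.8 CPM in KO (log2 fold change 1.46, SE 0.19, edgeR adjusted p = 0.000451; 2.77-fold higher), and Unc5c (chr3:141465216-141834924, plus strand) had 0.475, 0.760 and 0.705 CPM in WT and 3.79, 2.07 and 2.70 CPM in KO on 41 and 183 counts (log2 fold change 2.15, SE 0.32, edgeR adjusted p = 0.000968). For these receptors the KO lines were all above the WT lines, yet the sum of the 4 Unc5 genes was 91.2 ± 20.8 CPM in WT and 49.8 ± 5.43 CPM in KO (SD, n = 3), because Unc5b dominates it. Dcc, the attractive receptor, was higher, at 12.6, 16.3 and 18 CPM in WT and 35.5, 23.4 and 20.6 CPM in KO (log2 fold change 0.76, SE 0.22, edgeR adjusted p = 0.0212). KO line 3 was its highest line, without which the log2 fold change was 0.50, and the call was lost without WT line 3 (edgeR adjusted p = 0.0600) or WT line 8 (edgeR adjusted p = 0.0572). Neo1 (neogenin), a Dcc relative that also binds repulsive guidance molecules and is outside the rule, was lower (log2 fold change -0.42, SE 0.13, edgeR adjusted p = 0.0310), a call lost without WT line 3, WT line 19 or KO line 13 and when WT line 19 and KO line 3 were both left out (edgeR adjusted p 0.0639 to 0.112). Unc5d was not called.

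The upstream windows of Unc5a and Unc5b are given as those of receptors for 1 ligand that were called in opposite directions, from the same source and in the same notation. The Unc5a window lies at chr13:54949161-54949410 and that of Unc5b at chr10:60831582-60831831.
Unc5a: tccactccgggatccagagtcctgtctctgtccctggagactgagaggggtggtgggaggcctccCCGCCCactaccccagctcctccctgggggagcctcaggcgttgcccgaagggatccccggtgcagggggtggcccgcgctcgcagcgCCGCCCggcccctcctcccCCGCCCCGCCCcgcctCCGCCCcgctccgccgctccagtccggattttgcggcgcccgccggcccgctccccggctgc
Unc5b: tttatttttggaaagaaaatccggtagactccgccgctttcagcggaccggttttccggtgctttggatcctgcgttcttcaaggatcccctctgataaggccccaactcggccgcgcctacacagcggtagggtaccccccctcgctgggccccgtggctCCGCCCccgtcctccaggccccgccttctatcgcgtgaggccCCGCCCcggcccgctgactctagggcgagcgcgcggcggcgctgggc
Unc5a carries 5 GC boxes and 76.8% G and C, Unc5b 2 GC boxes and 66.8%. Neither window holds a TATA box or a CACGTG E-box.

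Both tested Slits were higher in KO, and of the 4 Robos 2 were called lower and none higher (50% called, near the 42.3% of all tested genes). Slit1, a secreted repellent, had 4.21, 3.70 and 2.33 CPM in WT and 6.79, 10.1 and 6.95 CPM in KO (log2 fold change 1.21, SE 0.25, edgeR adjusted p = 0.00511). Slit2 (chr5:47983138-48307733, plus strand) had 0.695, 0.659 and 0.705 CPM in WT and 3.74, 2.11 and 1.502 CPM in KO, on 45 and 155 counts (log2 fold change 1.81, SE 0.37, edgeR adjusted p = 0.00466). The WT lines of Slit2 were nearly equal, and its KO lines were spread, with KO line 3 the highest. Robo2 (chr16:73891839-74411825, minus strand), a main Slit receptor of the forebrain, had 63.4, 49.96 and 77.4 CPM in WT and 32.4, 26.8 and 30.6 CPM in KO, without overlap (log2 fold change -1.09, SE 0.16, edgeR adjusted p = 0.00104; 2.13-fold lower). Robo4, a vascular member outside the rule, was lower on 60 counts in WT and 27 in KO (log2 fold change -1.17, SE 0.32, edgeR adjusted p = 0.0186), a call lost without WT line 8, without WT line 19, with WT line 19 and KO line 3 both left out, and in the DESeq2 test (adjusted p 0.0537 to 0.0706). Robo1, at 22.2, 28.1 and 27.3 CPM in WT and 28.1, 17.3 and 21.2 CPM in KO, and Robo3 were not called in the fit of all 6 lines.

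Of the 8 tested ephrins, 1 was called higher in KO and 2 lower (37.5% called, near the 42.3% of all tested genes), and no ephrin reached a 2-fold difference. Efnb2, a transmembrane ephrin and the most abundant of its class per kilobase, had 55.3, 35.6 and 54.2 CPM in WT and 48.8, 48.9 and 39.7 CPM in KO, with overlap, and was not called (log2 fold change -0.08, SE 0.18, edgeR adjusted p = 0.745). Efnb3 was lower, at 19.8, 21.6 and 19.7 CPM in WT and 15.5, 14.1 and 13.2 CPM in KO (log2 fold change -0.51, SE 0.12, edgeR adjusted p = 0.00852). Of the membrane-anchored ephrin-As, Efna4 had the highest level per kilobase and was not called, with 9.47, 11.2 and 11.9 CPM in WT and 12.1, 15.6 and 15.96 CPM in KO (log2 fold change 0.43, SE 0.16, edgeR adjusted p = 0.0544). Efna2 was higher (5.89, 5.73 and 5.15 CPM in WT, 7.21, 7.87 and 8.75 CPM in KO; log2 fold change 0.51, SE 0.15, edgeR adjusted p = 0.0250), though without any of WT lines 3, 8 and 19 or KO lines 13 and 16 the call was lost (edgeR adjusted p 0.0652 to 0.0830). Efna3 was lower (2.999, 3.65 and 2.60 CPM in WT, 1.18, 1.99 and 1.80 CPM in KO; log2 fold change -0.88, SE 0.25, edgeR adjusted p = 0.0212), with the call lost without WT line 3 or WT line 8 (edgeR adjusted p 0.0537 to 0.0792).

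Eph receptors had 8 of 12 tested members called, 4 higher and 4 lower (66.7%, beside 42.3% of all tested genes). Among the EphA receptors, Epha5 rose from 15.5, 19.9 and 15.5 CPM in the WT lines to 56.6, 42.2 and 31.5 CPM in the KO lines, and no KO line reached down to the WT range (log2 fold change 1.36, SE 0.21, edgeR adjusted p = 0.00122; 2.56-fold higher). Epha4, which binds ephrins of either class, had 9.99, 5.73 and 11.3 CPM in WT and 18.5, 15.8 and 14.0 CPM in KO (log2 fold change 0.84, SE 0.24, edgeR adjusted p = 0.0192). Epha10, a receptor without kinase activity, was higher on 35 and 92 counts, 0.585, 0.608 and 0.380 CPM in WT and 1.12, 1.78 and 1.24 CPM in KO (log2 fold change 1.38, SE 0.32, edgeR adjusted p = 0.00793). Epha7 (chr4:28813131-28967499, plus strand), known in cortical precursors, went the other way, with 5.78, 4.81 and 6.83 CPM in WT and 2.89, 2.03 and 1.76 CPM in KO (log2 fold change -1.39, SE 0.24, edgeR adjusted p = 0.00178). Epha2, the EphA receptor with the highest level per kilobase, had 45.9, 45.6 and 61.1 CPM in WT and 14.8, 26.5 and 25.5 CPM in KO, lowest in KO line 3 (log2 fold change -1.19, SE 0.22, edgeR adjusted p = 0.00282). The EphA receptors together were level, at 86.2 ± 10.7 CPM in WT and 88.2 ± 9.87 CPM in KO (SD, n = 3).

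EphB receptors summed to 287 ± 61.1 CPM in WT and 220 ± 33.7 CPM in KO (SD, n = 3), and 1 of the 5 was called higher and 2 lower (60% called, beside 42.3% of all tested genes). Ephb2 (chr4:136647539-136835988, minus strand), the most highly counted Eph receptor in WT, fell from 137, 119 and 196 CPM to 57.1, 80.9 and 85.1 CPM (log2 fold change -1.02, SE 0.21, edgeR adjusted p = 0.00470). WT line 19 was its highest and KO line 3 its lowest library, and without those the log2 fold change was -0.63 (edgeR adjusted p = 0.000119). Ephb6, which lacks kinase activity, had 12.4, 8.31 and 13.3 CPM in WT and 6.84, 6.01 and 5.92 CPM in KO (log2 fold change -0.86, SE 0.20, edgeR adjusted p = 0.00745). Ephb3 was higher (39.4, 38.8 and 41.4 CPM in WT, 44.5, 59.5 and 56.9 CPM in KO; log2 fold change 0.43, SE 0.13, edgeR adjusted p = 0.0248), a call lost without any of WT lines 3, 8 and 19 or KO lines 13 and 16 (edgeR adjusted p 0.0572 to 0.104). Ephb4, the highest EphB receptor per kilobase over both genotypes though below Ephb2 in WT, had 42.9, 42.2 and 57.97 CPM in WT and 46.5, 60.1 and 56.9 CPM in KO and was not called (log2 fold change 0.19, SE 0.16, edgeR adjusted p = 0.343). It was called higher with WT line 19 and KO line 3 both left out (0.46, edgeR adjusted p = 0.00221), a fit in which Xist state followed genotype. Ephb1 was not called with all 6 lines.

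Membrane and secreted partners of these receptors, from a list of 41 genes of which 39 were tested, had 10 called higher and 13 lower (59.0% called, against 42.3% of all genes; median log2 fold change -0.07). Without WT line 3 the number called higher was 6. Calls in the higher direction over all tested genes also fell in that fit, to 1994 from 3040. The partners with the smallest p-values included some of the largest differences. Dscam, an adhesion molecule that serves as a netrin co-receptor, had 3.69, 4.51 and 4.18 CPM in WT and 16.4, 15.8 and 17.0 CPM in KO (log2 fold change 1.99, SE 0.14, edgeR adjusted p = 2.79e-05). Its relative Dscaml1 had 8 counts over the WT lines and 158 over the KO lines, 0.110, 0.0507 and 0.217 CPM and 2.08, 2.92 and 2.15 CPM (log2 fold change 4.22, SE 0.40, edgeR adjusted p = 0.000107). Adgrl1, a latrophilin listed under its older symbol Lphn1, rose from 346, 328 and 385 CPM to 659, 711 and 682 CPM (log2 fold change 0.96, SE 0.11, edgeR adjusted p = 0.00021), and Rgma, the Neo1 ligand, from 16.7, 12.3 and 16.8 CPM to 26.9, 41.6 and 43.6 CPM (log2 fold change 1.29, SE 0.20, edgeR adjusted p = 0.00129). Lower in KO were Met, the receptor of hepatocyte growth factor that can associate with plexin-Bs, with 15.9, 12.3 and 19.4 CPM in WT and 0.748, 0.634 and 0.772 CPM in KO (log2 fold change -4.46, SE 0.24, edgeR adjusted p = 1.16e-05), and Nrcam, an adhesion molecule of neuropilin complexes, with 208, 139 and 211 CPM and 34.4, 35.2 and 34.7 CPM (log2 fold change -2.42, SE 0.17, edgeR adjusted p = 2.62e-05). Adam10, the protease that sheds ephrins and other guidance proteins, had 327, 363 and 359.5 CPM and 149, 104 and 115 CPM (log2 fold change -1.51, SE 0.14, edgeR adjusted p = 0.000107). Itga3, an integrin subunit, had 13.9, 12.4 and 18.4 CPM and 2.19, 3.13 and 3.65 CPM (log2 fold change -2.30, SE 0.23, edgeR adjusted p = 0.000123).

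Cytoplasmic effectors were called mostly in the higher direction: of 73 tested from a list of 74, 30 were higher and 6 lower (41.1% higher, against 21.8% of all genes, and 8.22% lower, against 20.4%; median log2 fold change 0.24). Without KO line 3, 36 effectors were called higher and 14 lower. Calls over all tested genes also rose in that fit, to 3666 higher and 3944 lower from 3040 and 2844. Dpysl5, of the collapsin response mediator family that acts downstream of semaphorins, had 4.68, 4.86 and 4.56 CPM in WT and 43.9, 44.2 and 42.5 CPM in KO (log2 fold change 3.21, SE 0.12, edgeR adjusted p = 4.34e-06; 9.26-fold higher). Its lines were tightly grouped within each genotype. Kalrn, a guanine nucleotide exchange factor, rose from 12.3, 11.7 and 9.16 CPM to 49.1, 42.0 and 43.6 CPM (log2 fold change 2.02, SE 0.14, edgeR adjusted p = 2.75e-05). Ablim1, an actin-binding protein, had 2.93, 3.24 and 1.74 CPM and 10.8, 9.39 and 9.18 CPM (log2 fold change 1.88, SE 0.22, edgeR adjusted p = 0.000313). Ptk2, the focal adhesion kinase, had 187, 178 and 179.9 CPM and 426, 336 and 333 CPM (log2 fold change 1.01, SE 0.12, edgeR adjusted p = 0.000343). The exchange factors Vav3 (log2 fold change -0.94, SE 0.12, edgeR adjusted p = 0.000516), Tiam2 (log2 fold change -1.66, SE 0.24, edgeR adjusted p = 0.000817) and Arhgef12 (log2 fold change -0.60, SE 0.11, edgeR adjusted p = 0.00243) and the semaphorin effector Mical2 (log2 fold change -1.15, SE 0.15, edgeR adjusted p = 0.000571) fell. For each of the 16 partner and effector genes named here, the call was kept under all 15 alternatives. Several effectors are general cytoskeletal regulators and belong to other pathways as well.

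**Figure D4:**
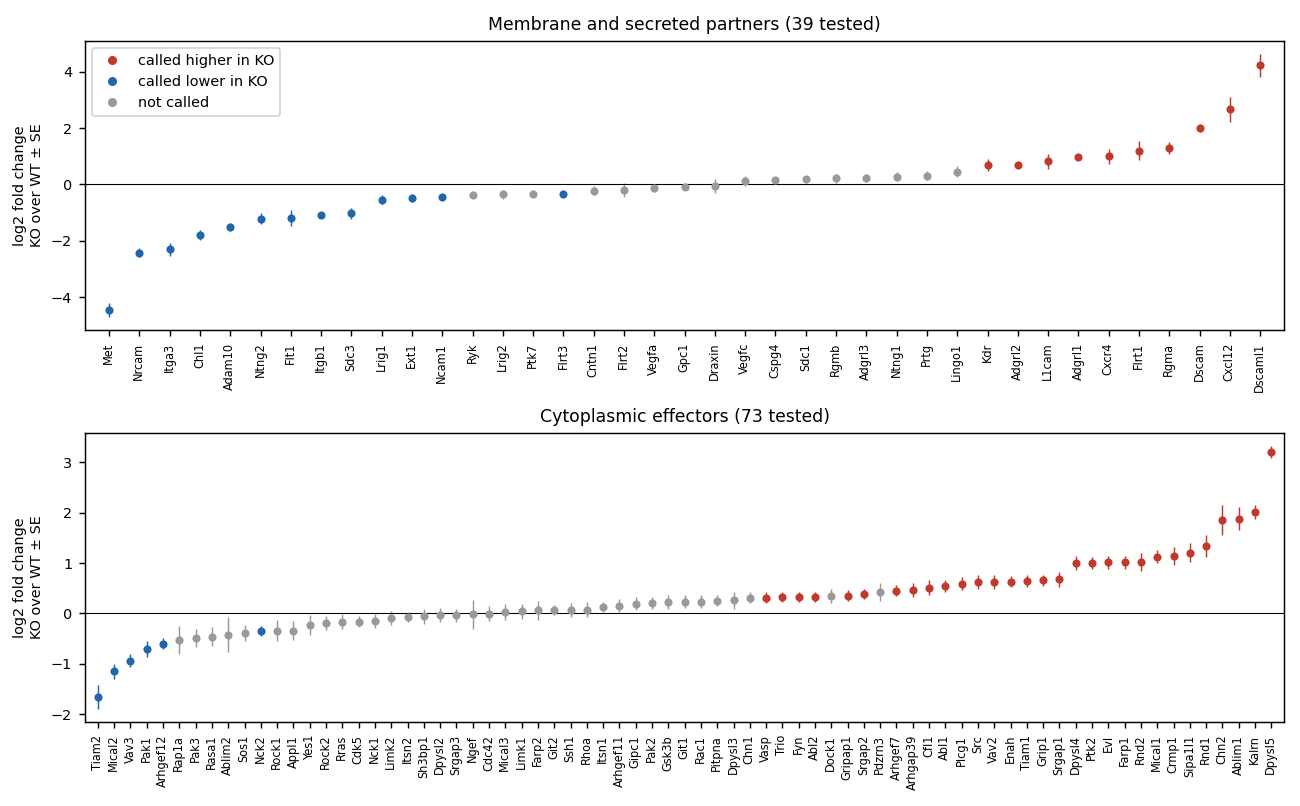
Log2 fold change of KO over WT, with standard errors, for the 39 tested partner genes (top) and the 73 tested effector genes (bottom), each ordered from lowest to highest. Partners called higher (10, red) and lower (13, blue) stand at both ends, while the effectors called higher (30) outnumber those called lower (6).

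Long genes are common in this family: 31 of the 64 tested members span at least 100 kilobases of genome, and the median span was 62.8 kilobases against 24.6 over all tested genes. Of the 31 long members 14 were called higher and 9 lower (median log2 fold change 0.45, beside 0.06 over 1888 tested genes of that span, of which 28.8% were called higher and 22.5% lower), and of the 33 shorter ones 8 were called higher and 11 lower (median -0.08, beside 0.01 over 10695, of which 21.3% were called higher and 20.1% lower). KO line 3 differed from the other KO lines along this axis. It lay above their mean for 21 of the 31 long members (67.7%, median log2 difference 0.21) and for 6 of the 33 shorter ones (18.2%, median -0.30). Over all tested genes the shares were 63.3% and 47.3%. The clearest case was Efna5, at 1.54, 1.77 and 2.11 CPM in WT and 4.38, 1.61 and 1.502 CPM in KO, where KO line 3 stood alone above the rest and no call was made (log2 fold change 0.45, SE 0.41, edgeR adjusted p = 0.411). WT line 19 lay above the mean of the other WT lines for 48 of the 64 members (75.0%), against 50.2% of all tested genes. That library also stood apart in the ribosomal precursor RNA Rn45s, with 18739 CPM where the remaining 5 libraries had 1078 to 2568 CPM. The part of these lines in the genotype differences was not tested beyond leaving them out.

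**Figure D5:**
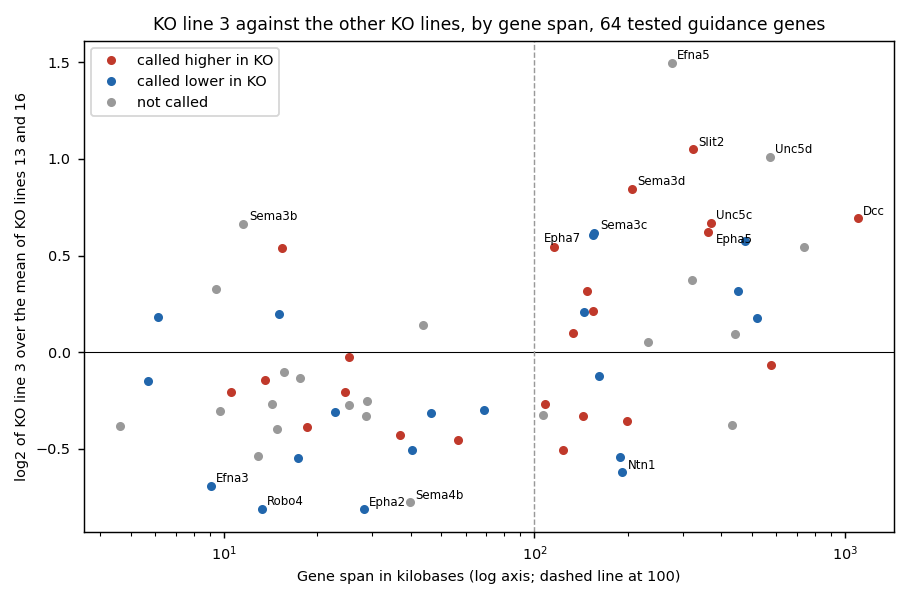
Log2 ratio of KO line 3 to the mean of KO lines 13 and 16 for the 64 tested guidance genes, against the genomic span of the gene in kilobases on a log axis, with the dashed line at 100 kilobases. Right of the line 21 of 31 genes lie above 0, with Efna5 the highest, and left of it 6 of 33 do.

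Without KO line 3, Robo1 was called lower (log2 fold change -0.42, edgeR adjusted p = 0.0242). Efna4 (0.55, edgeR adjusted p = 0.00623), Ntn4 (0.46, edgeR adjusted p = 0.00620), Sema4b (0.64, edgeR adjusted p = 0.00213) and Sema4c (0.38, edgeR adjusted p = 0.00712) were then called higher. None of these 5 was called with all 6 lines. Since Xist state split the lines within each genotype, it was also fitted as a term, and 21 guidance genes were then called higher and 23 lower. The share of all tested genes called with that term is not given here. Ephb1 (-0.40, edgeR adjusted p = 0.0182), Sema3e (-1.07, edgeR adjusted p = 0.0180) and Sema4g (-0.41, edgeR adjusted p = 0.00910) were called lower in that fit and not in the fit without the term. Sema4a was no longer called higher in it (1.05, edgeR adjusted p = 0.0758). Of the 3 X-linked members 33.3% were called, beside 42.3% of all tested genes. Plxnb3 was called higher and Plxna3 (log2 fold change 0.18, SE 0.12, edgeR adjusted p = 0.257) and Efnb1 (log2 fold change 0.10, SE 0.19, edgeR adjusted p = 0.715) were not. With WT line 19 and KO line 3 both left out, these also were called higher (Plxna3 0.32, edgeR adjusted p = 0.0163, and Efnb1 0.40, edgeR adjusted p = 0.0265). That fit set Xist-high WT lines against Xist-low KO lines, so genotype and Xist state cannot be told apart in it. With Xist state as a term in the fit of all 6 lines, Plxna3 was 0.12 (edgeR adjusted p = 0.357) and Efnb1 -0.07 (edgeR adjusted p = 0.677).

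The other 6 members had too few counts to test. Over the 3 lines of a genotype, Slit3 had 1 count in WT and 1 in KO, Epha6 had 2 and 0, Epha8 had 3 and 2, Sema3g had 9 and 3, Ntn5 had 18 and 6, and Sema4f had 24 and 28. The 0 for Epha6 in each KO library allows up to 0.127 to 0.160 CPM at a floor of 3 counts, which covers counting error only. For 7 members an exon shares bases with an exon of another row: Epha1, Epha10, Ephb4, Ntn3, Ntn5, Nrp1 and Unc5a. Their reads and those of the neighbour could be confused where the counting did not use strand, which is not given in the sources used here.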

How the data were processed

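The deposited values are raw read counts for each gene symbol, in 1 column for each of the 6 libraries, per the file headers. HTSeq 0.7.2, STAR, cutadapt 1.14, DESeq2 and genome build mm10 are named in the submitters' processing notes; the sources used here do not give their roles, the annotation or the strand setting. Per the labels' protocols, nuclei were isolated with an extraction kit and checked by RT-qPCR of U1 and beta-actin before sequencing. Total counts of 18702738 to 26789522 set the precision: 3 counts were worth 0.110 to 0.163 CPM. Replicate lines differed by more than sampling noise (chi-square per degree of freedom 10.8 to 91.5), so each counted as a sample; 0 columns were left out.

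Genes passing filterByExpr were tested over the whole table with edgeR 4.0.16 in R 4.3.3 (TMM scaling, robust quasi-likelihood fit, genotype as the only term), two-sided, and called at a Benjamini-Hochberg adjusted p under 0.05. The SE was derived from the F statistic. No batch is labelled. DESeq2 1.42.0 and limma 3.58.1 were alternatives, with the others listed in the closing section. On simulated counts with 200 of 13925 genes changed, edgeR called 34.3% of 1.5-fold, 73.1% of 2-fold and 98.5% of 4-fold changes. Of its calls 10.5% were false, more than a threshold of 0.05 aims at. In the data 5884 of 13925 genes were called, far more than were changed in the simulation, so these rates need not hold for the data. Positions and exon lengths come from GENCODE mouse release 21 (GRCm38), matched by symbol for all 70 guidance genes, and upstream sequences from RefSeq (GRCm38.p6), which matched 60. The guidance genes, the partner, effector and marker lists and the rule for named genes were chosen with earlier results of these data known, and support nothing by themselves. The rule named Fmr1, then per family up to 3 called genes in each direction with the largest change at 1 CPM or more in the higher group and the gene with the highest level per kilobase, and up to 4 genes per list and direction by smallest p.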

Additional observations from a re-analysis of the deposited data

How the results depend on the processing

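Alternatives were DESeq2 size factors, scaling by library size, a filter of 1 CPM in 3 libraries or no filter, the DESeq2 Wald test, limma-voom, a threshold of 0.10, Xist state as a term, each of the 6 lines left out, and WT line 19 and KO line 3 left out together. Of the 42 called guidance genes, 28 kept the call under all 15, and the 14 others, named with their values above, lost it under at least 1. The counts of guidance genes called, 22 higher and 20 lower, stayed within 1.5 times of those values under every alternative, from 15 to 25 higher and 15 to 20 lower when a line was left out. With a line left out, partner genes called higher numbered 6 to 10, effector genes called lower 5 to 14 and all genes called higher 1994 to 3666, with the lowest number of partners and of all genes without WT line 3 and the highest number of effectors without KO line 3. Without WT line 19 and KO line 3 together, 14 effectors were lower, and guidance genes called numbered 29 higher and 17 lower. The share of all tested genes called in that fit is not given here. Genotype and Xist state cannot be told apart in that fit. The median log2 fold change of the guidance genes, 0.09, was 0.0191 at 1 CPM in 3 libraries, where 60 were tested, and 0.0502 to 0.13 with a line left out. Values that changed sign all belonged to genes not called in the fit of 6 lines. With a line left out, Fmr1 ranged over -0.58 to 0.14, Efna5 -0.20 to 0.72, Efnb1 -0.0400 to 0.26, Efnb2 -0.26 to 0.0234, Plxnb2 -0.14 to 0.0401, Robo3 -0.0409 to 0.25 and Unc5d -0.67 to 0.10. Without WT line 19 and KO line 3, Efna5 was -0.0795, Epha1 0.0247, Ephb1 0.0876 and Plxnb2 0.13, and with Xist state as a term Efnb1 was -0.0727 and Unc5d 0.0697. The cause was not tested. No paired analysis was possible because the genotypes share only the line number 3. Among called guidance genes, low counts limit Sema4a, Robo4, Epha10, Sema3d, Slit2, Unc5c and Plxnc1, each with under 100 counts in at least 1 genotype.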

Other observations

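Within the partner and effector lists, some genes outside the naming rule form small groups, chosen here after their values were seen. Of the 5 collapsin response mediators, phosphoproteins that bind tubulin, Dpysl4 rose with Dpysl5, from 22.9, 19.5 and 23.0 CPM in WT lines 3, 8 and 19 to 36.7, 48.6 and 45.5 CPM in KO lines 3, 13 and 16 (log2 fold change 0.9999, SE 0.14, edgeR adjusted p = 0.000654), and so did Crmp1 (43.2, 30.5 and 43.3 CPM to 71.3, 85.2 and 101 CPM; log2 fold change 1.141, SE 0.18, edgeR adjusted p = 0.00114). Dpysl2 (log2 fold change -0.04, SE 0.14, edgeR adjusted p = 0.851) and Dpysl3 (log2 fold change 0.26, SE 0.17, edgeR adjusted p = 0.255) were not called. The receptors of vascular endothelial growth factor, which share neuropilins with the semaphorins, differed from each other: Kdr was higher (3.91, 4.61 and 3.85 CPM in WT, 8.39, 5.16 and 6.39 CPM in KO; log2 fold change 0.68, SE 0.21, edgeR adjusted p = 0.0274) and Flt1 lower (5.41, 7.60 and 10.7 CPM, 2.40, 4.10 and 3.69 CPM; log2 fold change -1.20, SE 0.29, edgeR adjusted p = 0.00937), and the ligand Vegfa was not called (log2 fold change -0.14, SE 0.15, edgeR adjusted p = 0.494). In the L1 family of adhesion molecules, Chl1, a Sema3a co-receptor component, fell from 257, 344 and 260.4 CPM to 104, 76.8 and 67.8 CPM (log2 fold change -1.79, SE 0.18, edgeR adjusted p = 0.000142) like Nrcam, whereas the scarce L1cam was higher (0.951, 0.811 and 0.596 CPM, 1.496, 1.52 and 1.24 CPM; log2 fold change 0.83, SE 0.27, edgeR adjusted p = 0.0359). Itgb1, the integrin subunit that pairs with Itga3 and binds Sema7a, fell from 699, 764 and 719 CPM to 368, 307 and 359 CPM (log2 fold change -1.08, SE 0.11, edgeR adjusted p = 0.000152).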
